A study of Homo sapiens with 12 samples.

Results

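CREBBP, SGF29, EPC2 and SIN3A encode subunits of the enzyme complexes that add acetyl groups to histones or take them off. These 4 genes were chosen by symbol in the probe annotation, out of 14884 genes measured, and each is represented by 1 transcript cluster, a group of probes read as a unit (16823433, 16817337, 16886356 and 16811791, in the same order). They were picked with changes on these same arrays in view, and which comparison decided the choice is not recorded, so all of their values are a description and no p-value is given for them. SK-N-BE(2), a neuroblastoma cell line with amplified MYCN, was cultured for 6 h in 4 ways, with 3 arrays each. The groups are 1 µM JQ1 plus 10 nM panobinostat (the combination), 10 nM panobinostat alone, 1 µM JQ1 alone, and vehicle control. JQ1 displaces the BET bromodomain proteins from acetylated histones, and panobinostat inhibits the histone deacetylases. All groups share the cell line, the medium with fetal calf serum and the treatment time, so the results describe 1 line at 1 time. The arrays were Affymetrix Human Gene 2.0 ST, and the values are taken as log2 signals.

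Histone acetyltransferases work in large assemblies in which scaffold and reader subunits bring the enzyme to chromatin. CBP, the product of CREBBP, and its relative p300 are recruited by many transcription factors and acetylate histones at enhancers and promoters. SGF29 is a reader subunit that binds methylated histone H3 and belongs to the SAGA and ATAC complexes, whose enzymes are GCN5 (KAT2A) or PCAF (KAT2B). EPC2 and its relative EPC1 are scaffold subunits of the NuA4/TIP60 complex, whose enzyme is KAT5. SIN3A works on the other side of the balance as the scaffold of a corepressor complex that holds the deacetylases HDAC1 and HDAC2, the class of enzyme that panobinostat inhibits.

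The promoters of the 4 genes are shown because 3 of the genes had lower signals in every panobinostat-treated group and the other a higher one. Each sequence runs from 250 bases before to 50 bases after the annotated start (RefSeq, GRCh38.p14), and for CREBBP and SIN3A, which have 2 listed starts, the outermost is printed. Capitals mark matches, on either strand, to the GC box GGGCGG, the CCAAT box CCAAT, the E-box CACGTG that MYC proteins bind, and TGACG, the core of the cAMP response element TGACGTCA.
CREBBP, chr16:3880664-3880963, minus strand: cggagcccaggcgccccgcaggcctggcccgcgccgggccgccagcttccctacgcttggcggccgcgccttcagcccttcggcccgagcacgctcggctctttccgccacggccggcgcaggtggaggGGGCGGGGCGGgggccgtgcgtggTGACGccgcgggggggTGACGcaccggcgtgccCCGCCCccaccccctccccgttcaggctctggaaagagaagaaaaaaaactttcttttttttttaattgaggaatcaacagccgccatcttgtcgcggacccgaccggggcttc
SGF29, chr16:28553670-28553969, plus strand: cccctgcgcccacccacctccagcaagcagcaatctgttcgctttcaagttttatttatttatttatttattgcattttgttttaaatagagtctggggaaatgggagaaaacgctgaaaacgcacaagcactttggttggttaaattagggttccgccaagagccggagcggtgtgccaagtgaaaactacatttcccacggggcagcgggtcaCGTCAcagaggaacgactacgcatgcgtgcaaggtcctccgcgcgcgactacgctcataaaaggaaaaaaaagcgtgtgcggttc
EPC2, chr2:148644501-148644800, plus strand: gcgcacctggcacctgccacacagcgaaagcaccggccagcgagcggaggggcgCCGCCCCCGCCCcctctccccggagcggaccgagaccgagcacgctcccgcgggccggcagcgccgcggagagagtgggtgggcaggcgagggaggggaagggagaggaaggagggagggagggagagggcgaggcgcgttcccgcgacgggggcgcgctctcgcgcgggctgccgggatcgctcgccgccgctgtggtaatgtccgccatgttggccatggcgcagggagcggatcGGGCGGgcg
SIN3A, chr15:75455766-75456065, minus strand: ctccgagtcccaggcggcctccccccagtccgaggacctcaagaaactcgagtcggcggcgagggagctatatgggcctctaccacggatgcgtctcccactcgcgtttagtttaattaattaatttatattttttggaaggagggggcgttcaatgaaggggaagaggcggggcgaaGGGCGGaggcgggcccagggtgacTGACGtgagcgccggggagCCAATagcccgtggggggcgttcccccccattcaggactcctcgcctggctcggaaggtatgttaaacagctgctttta
The GC content was 70.3% for CREBBP, 49.0% for SGF29, 76.7% for EPC2 and 59.7% for SIN3A, against a median of 58.7% over 35116 promoters of the same length. GC boxes were found in these windows of CREBBP (3 matches), EPC2 (3) and SIN3A (1), and 45.0% of all promoters held at least 1. The CCAAT letters occurred in SIN3A alone among the 4 windows, against 34.6% of all promoters, and the response-element core in CREBBP (2 matches), SGF29 (1) and SIN3A (1), against 24.6%. No window held the E-box (7.26% of all promoters) or the whole response element (1.85%). In the printed windows the letter counts therefore do not separate SIN3A from the other 3 genes except by the CCAAT match. At its second listed start SIN3A had 4 GC boxes, 3 CCAAT matches and 1 response-element core. CREBBP had 4, 0 and 0 of these at its second start. Which start these cells use was not tested, and matches describe sequence only.

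No detection calls accompany the values, and precision rests on 3 arrays per group. Array medians lay between 6.12 and 6.29, and pairs of arrays correlated at 0.991 to 0.995 inside a group and at 0.962 to 0.989 across groups (14884 genes). Of 12 listed neuroblastoma markers 9 were measured, and all 9, TH and ISL1 among them, lay above the median gene, a rough guide since brightness also depends on the probes. Their mean log2 signal was 10.23 to 10.24 on combination arrays, 10.45 to 10.49 with panobinostat, 10.81 to 10.84 with JQ1 and 10.89 to 10.92 with vehicle. It moved with treatment, and its part in the results was not tested. Among 7 measured markers of fibroblasts, blood cells and epithelium, LUM alone lay above the median gene, and their mean was 6.63 to 6.80, 6.69 to 6.80, 6.72 to 6.76 and 6.76 to 6.98 in the same group order. The labels do not say whether replicates were separate cultures, so the p-values below reflect array-to-array spread that could be purely technical. RNA came from whole cultures, so fewer cells with a transcript and less of it per cell cannot be told apart.

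CREBBP fell under every treatment, and most where panobinostat was present. Its log2 signals were 10.21, 10.27 and 10.25 with the combination, 10.40, 10.46 and 10.35 with panobinostat, 10.86, 10.87 and 10.88 with JQ1, and 11.37, 11.37 and 11.21 with vehicle. The groups did not overlap anywhere, and the order was combination, panobinostat, JQ1 and vehicle, lowest to highest. The mean difference from vehicle was -1.07 ± 0.07 with the combination (SE from limma, n = 3 arrays per group), which is a 2.10-fold lower signal. It was -0.91 ± 0.07 with panobinostat and -0.44 ± 0.07 with JQ1. Neighbours at the low end lay close together: the combination differed from panobinostat by -0.16 ± 0.07, with a 95% interval from -0.31 to -0.02, which did not pass the fit's threshold but did after quantile normalization (-0.183).

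SGF29 moved in opposite directions with the single compounds. Its log2 signals were 10.29, 10.43 and 10.44 with the combination, 9.55, 9.32 and 9.46 with panobinostat, 11.18, 11.09 and 11.11 with JQ1, and 10.66, 10.65 and 10.64 with vehicle. No groups overlapped: panobinostat arrays were lowest, JQ1 arrays highest, and combination arrays sat between panobinostat and vehicle. The difference from vehicle was -1.21 ± 0.07 with panobinostat (2.31-fold lower) and 0.48 ± 0.07 with JQ1 (1.39-fold higher). With the combination it was -0.26 ± 0.07, and this value was -0.216 and no longer past the threshold without combination replicate 1. The combination was higher than panobinostat alone by 0.94 ± 0.07, and 0.42% of all genes had a larger difference of either sign in that comparison. Panobinostat set directly against JQ1 gave -1.68 ± 0.07, a size exceeded by 0.05% of genes.

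EPC2 had the largest fall of the 4 genes. Its log2 signals were 7.68, 7.77 and 7.91 with the combination, 7.36, 7.38 and 7.52 with panobinostat, 8.95, 8.82 and 8.83 with JQ1, and 9.24, 9.12 and 9.04 with vehicle. Arrays with panobinostat, alone or combined, lay more than a full log2 unit below JQ1 and vehicle arrays on average, and the combination arrays were higher than those of panobinostat alone. The difference from vehicle was -1.71 ± 0.08 with panobinostat (3.28-fold lower) and -1.34 ± 0.08 with the combination (2.54-fold lower). In the panobinostat comparison 0.14% of genes had a larger difference of either sign. With JQ1 the difference was -0.26 ± 0.08, which did not pass the threshold although the arrays did not overlap. It did pass after quantile normalization (-0.26) and with the dimmest genes left out (-0.26). JQ1 added to panobinostat gave 0.37 ± 0.08, with a 95% interval from 0.18 to 0.55, a call lost when all clusters were tested (0.368).

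SIN3A went the other way. Its log2 signals were 10.98, 11.14 and 11.11 with the combination, 10.75, 10.87 and 10.80 with panobinostat, 10.16, 10.08 and 10.01 with JQ1, and 10.08, 10.01 and 9.88 with vehicle. JQ1 and vehicle arrays overlapped, panobinostat arrays were all higher than these, and combination arrays were higher still. The difference from vehicle was 1.09 ± 0.08 with the combination (2.13-fold higher) and 0.82 ± 0.08 with panobinostat (1.77-fold higher). With JQ1 it was 0.09 ± 0.08, with a 95% interval from -0.07 to 0.26. The combination exceeded panobinostat by 0.27 ± 0.08. That value lost its call without combination replicate 2 (0.239) or 3 (0.253) or panobinostat replicate 1 (0.242) or 3 (0.268). The call was also lost with arrays centred on their medians (0.287), all clusters tested (0.271) or only the arrays compared (0.271). With the replicate number as a block it was lost as well (0.271).

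**Figure D1:**
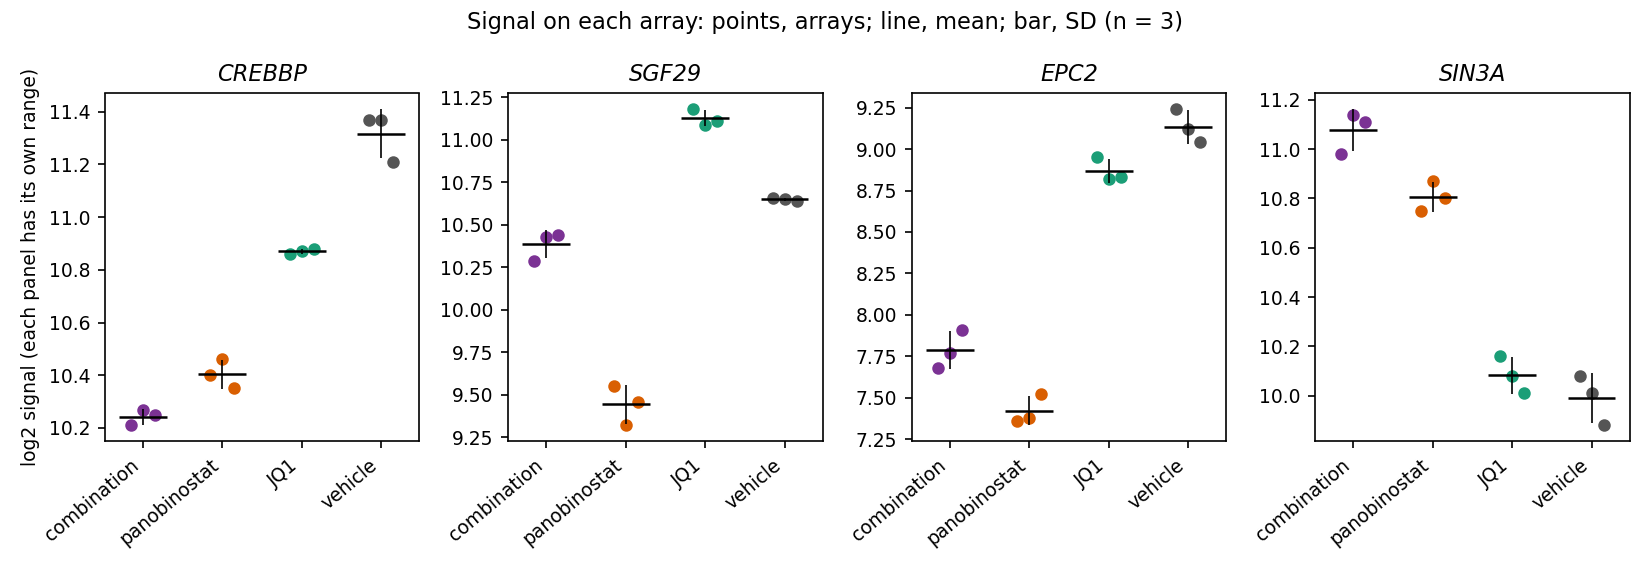
Log2 signal (vertical axis, each panel with its own range) of CREBBP, SGF29, EPC2 and SIN3A on each of 12 arrays, by treatment (horizontal axis), with points for arrays, a line for the group mean and a bar for the SD (n = 3). Vehicle arrays are the highest for CREBBP and EPC2, JQ1 arrays the highest for SGF29, and combination arrays the highest for SIN3A.

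Counted by the fit's threshold (adjusted p under 0.05), 4 of the 4 genes passed for the combination against vehicle, 3 lower and 1 higher, where 37.7% of all genes passed, 19.5% lower and 18.2% higher. For panobinostat against vehicle 4 passed, again 3 lower and 1 higher, against 29.3% of genes, 14.8% lower and 14.5% higher. For JQ1 against vehicle 2 passed, CREBBP lower and SGF29 higher, against 17.6%, 9.47% lower and 8.18% higher. For the combination against JQ1 4 passed, 3 lower and 1 higher, against 25.6%, 13.9% lower and 11.7% higher. For the combination against panobinostat 3 passed, all higher, against 14.7%, 6.13% higher and 8.55% lower. For panobinostat against JQ1 4 passed, 3 lower and 1 higher, against 23.3%, 11.6% in each direction. Arrays did not overlap for 4, 4 and 3 of the genes in the comparisons of combination, panobinostat and JQ1 with vehicle, where 46.1%, 39.8% and 33.5% of all genes did not overlap. They did not overlap for any of the 4 in the comparisons of the combination with JQ1 (41.7% of all genes), the combination with panobinostat (30.9%) and panobinostat with JQ1 (39.3%). Since the genes were chosen for their changes, nothing is read from these counts. The comparisons with vehicle share the vehicle arrays, and their values are given side by side for that reason.

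The change with both compounds was set beside the sum of the changes with each. For CREBBP the combination gave -1.07 and the sum -1.35, for SGF29 -0.26 and -0.73, for EPC2 -1.34 and -1.97, and for SIN3A 1.09 and 0.91. By these means the combination was nearer to vehicle than the sum for the 3 lower genes and farther for SIN3A. The departure, combination minus sum, was 0.63 ± 0.12 for EPC2, 0.47 ± 0.10 for SGF29, 0.28 ± 0.09 for CREBBP and 0.18 ± 0.11 for SIN3A. EPC2 alone of the 4 passed the threshold, against 0.759% of all genes, 0.309% higher and 0.45% lower. That call held in 4 of 18 alternative settings, in which the departure ranged from 0.566 to 0.682. It was lost without any 1 array except combination replicate 1. SGF29's departure passed after quantile normalization (0.447) and with the dimmest genes left out (0.467).

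**Figure D2:**
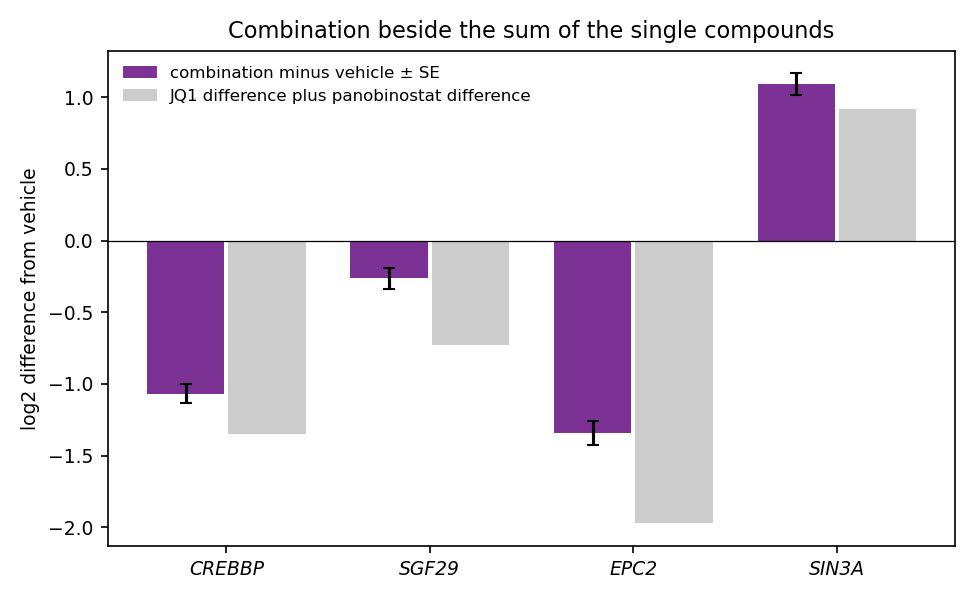
Log2 difference from vehicle (vertical axis) of each gene (horizontal axis) with the combination (purple bars, ± SE from limma, n = 3 arrays per group) beside the sum of the differences with JQ1 and with panobinostat alone (grey bars). The grey bar reaches farther down than the purple bar for CREBBP, SGF29 and EPC2, most for EPC2 (-1.97 against -1.34).

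Relatives and enzyme partners of the 4 genes were tested in the same fit. EP300, which encodes p300, had log2 signals of 10.38, 10.34 and 10.38 with the combination, 10.12, 10.08 and 10.11 with panobinostat, 10.66, 10.80 and 10.66 with JQ1, and 10.75, 10.79 and 10.62 with vehicle. Panobinostat arrays were lowest and JQ1 arrays overlapped those of vehicle. It fell by 0.35 ± 0.07 with the combination (limma adjusted p = 0.00115) and fell by 0.61 ± 0.07 with panobinostat (adjusted p = 4.45e-05). With JQ1 its difference was -0.01 ± 0.07 (adjusted p = 0.935). CREBBP stood at -1.07, -0.91 and -0.44 in the same comparisons. EP300 was higher with the combination than with panobinostat alone (0.26 ± 0.07, adjusted p = 0.0219), a call lost without any 1 of the 6 arrays compared (0.251 to 0.275) except panobinostat replicate 1. That call was also lost with all clusters tested (0.262) or only the arrays compared (0.262). CREBBP was at -0.16 between the combination and panobinostat.

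EPC1, the relative of EPC2, had log2 signals of 6.56, 6.97 and 6.86 with the combination, 7, 7.07 and 6.90 with panobinostat, 8.18, 8.22 and 8.12 with JQ1, and 8.45, 8.19 and 8.16 with vehicle. Every array with panobinostat was lower than every array without it. EPC1 fell by 1.47 ± 0.11 with the combination (adjusted p = 1.08e-06) and fell by 1.28 ± 0.11 with panobinostat (adjusted p = 9.15e-06). With JQ1 its difference was -0.09 ± 0.11 (adjusted p = 0.656). EPC1 was dim where panobinostat was present, averaging 6.80 with the combination and 6.99 with panobinostat, where array medians were 6.12 to 6.29. Whether its RNA was present on those arrays was not tested. Between the combination and panobinostat EPC1 was at -0.19 ± 0.11 (adjusted p = 0.3), where EPC2 was at 0.37. KAT5, the acetyltransferase of their complex, fell by 0.86 ± 0.16 with the combination (adjusted p = 0.000991) and by 0.98 ± 0.16 with panobinostat (adjusted p = 0.000677). Its fall with JQ1 was 0.57 ± 0.16 (adjusted p = 0.0281). That call was lost without vehicle replicate 1 (-0.512) or 3 (-0.508) or JQ1 replicate 2 (-0.533) or 3 (-0.497). It was also lost with all clusters tested (-0.571) or the replicate number as a block (-0.571).

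KAT2A and KAT2B are the alternative enzymes of SAGA and ATAC. KAT2A fell by 0.68 ± 0.07 with the combination (adjusted p = 1.49e-05), by 0.68 ± 0.07 with panobinostat (adjusted p = 4.12e-05) and by 0.34 ± 0.07 with JQ1 (adjusted p = 0.0066). KAT2B rose by 0.74 ± 0.08 with the combination (adjusted p = 1.79e-05), by 0.55 ± 0.08 with panobinostat (adjusted p = 0.000347) and by 0.36 ± 0.08 with JQ1 (adjusted p = 0.00983). KAT2B arrays lay between 6.84 and 7.01 with the combination and between 6.15 and 6.24 with vehicle. These are dim signals: array medians were 6.12 to 6.29, and the markers of other cell types apart from LUM averaged 5.12 to 6.93. Without detection calls, whether KAT2B RNA was present in vehicle cells was not tested, and its cluster is absent from the setting that leaves out dim genes. The rise of SGF29 with JQ1 thus stood beside a lower KAT2A and a higher but dim KAT2B.

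Beside SIN3A, its relative SIN3B rose by 0.29 ± 0.08 with the combination (adjusted p = 0.00932), a call lost when arrays were centred on their medians (0.258). Its difference with JQ1 was 0.01 ± 0.08 (adjusted p = 0.938). With panobinostat it rose by 0.29 ± 0.08 (adjusted p = 0.0145), a call lost without vehicle replicate 2 (0.252) or 3 (0.267) or panobinostat replicate 3 (0.243). That call was also lost with arrays centred (0.234) and with only the arrays compared (0.287). The deacetylases held by SIN3 went in different directions with the combination, HDAC1 up by 0.44 ± 0.07 (adjusted p = 0.000232) and HDAC2 down by 0.24 ± 0.07 (adjusted p = 0.0175). The HDAC2 call was lost without vehicle replicate 1 (-0.2) or combination replicate 1 (-0.199) or 2 (-0.236). It was also lost with the mean of a gene's clusters (-0.313), all clusters (-0.241) or only the arrays compared (-0.241). With panobinostat alone HDAC1 rose by 0.26 ± 0.07 (adjusted p = 0.0132) and HDAC2 was at -0.09 ± 0.07 (adjusted p = 0.413). That HDAC1 call was lost with arrays centred (0.202), with all clusters tested (0.255) or with only the arrays compared (0.255). It was also lost without vehicle replicate 2 (0.227) or panobinostat replicate 3 (0.215). With JQ1 neither HDAC1 nor HDAC2 passed.

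**Figure D3:**
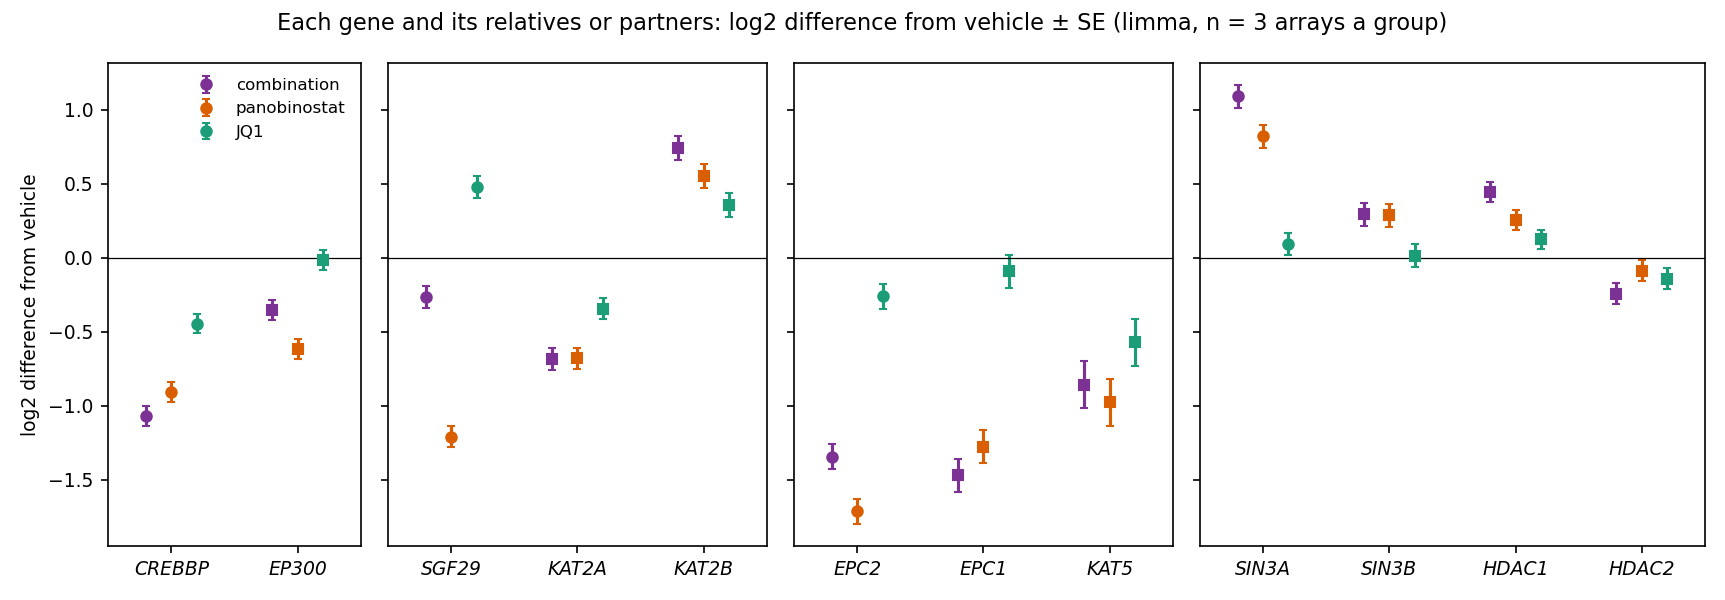
Log2 difference from vehicle ± SE (vertical axis, limma, n = 3 arrays per group) for each of the 4 genes (circles) and its relatives or enzyme partners (squares), with the combination, panobinostat and JQ1 in purple, orange and green. EPC1 and EPC2 are both more than 1 log2 unit lower with panobinostat, EPC1 reaching a dim level. KAT2B, a dim cluster, lies above 0 where KAT2A lies below it.

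The remaining subunits of these complexes were taken from 6 lists compiled from general knowledge, which hold 133 genes beside the 4, of which 91 were measured. MORF4L1 and TRRAP belong to more than 1 list. Most subunits are bright, 86 of 91 reaching the median gene's signal, and brighter genes passed the test more often, so shares are also given for the 7442 genes at or above that signal. With the combination 43 subunits fell and 16 rose (47.3% and 17.6%), against 19.5% and 18.2% of all genes and 31.5% and 26.8% of the brighter genes. With panobinostat 41 fell and 10 rose (45.1% and 11%), against 14.8% and 14.5% of all genes and 24.8% and 20.5% of the brighter genes. With JQ1 21 fell and 9 rose (23.1% and 9.89%), against 9.47% and 8.18% of all genes and 14.5% and 13.4% of the brighter genes. Set against panobinostat alone, the combination had 12 subunits higher and 16 lower (28 of 91; 13.2% and 17.6%), against 6.13% and 8.55% of all genes and 10.3% and 13.8% of the brighter genes. Without combination replicate 2 the count was 15. The median difference from vehicle over the 91 was -0.17, -0.18 and -0.03 for the combination, panobinostat and JQ1, against 0.02, 0.03 and 0.01 over all genes. Over the brighter genes it was -0.02, -0.02 and 0.01.

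The list of CBP, p300 and their coactivators, without CREBBP, had 12 measured genes, of which 7 fell and 2 rose with the combination (median -0.52). With panobinostat 7 fell and 1 rose (median -0.26), and with JQ1 5 fell and 3 rose (median -0.16). Calls made up 75%, 66.7% and 66.7% of this list in that order, against 37.7%, 29.3% and 17.6% of all genes. NCOA2, a nuclear receptor coactivator, fell by 1.49 ± 0.08 with the combination (adjusted p = 9.25e-08), while its relative NCOA1 rose by 0.52 ± 0.08 (adjusted p = 0.00037). NCOA1 also rose with JQ1, by 0.58 ± 0.08 (adjusted p = 0.000701), and MAML3, a coactivator of NOTCH, fell by 0.52 ± 0.06 (adjusted p = 0.000143). Of the 3 CREB coactivators of the CRTC family, CRTC3 fell by 0.77 ± 0.10 with panobinostat (adjusted p = 0.00017) and CRTC1 fell by 0.29 ± 0.07 (adjusted p = 0.0112). CRTC2 rose by 0.49 ± 0.07 (adjusted p = 0.000203). The CRTC1 call was lost when only the arrays compared were fitted (-0.291).

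Of 18 measured SAGA and ATAC subunits other than SGF29, 11 fell and 2 rose with the combination (median -0.35), 10 fell and 1 rose with panobinostat (median -0.27), and 3 fell and 2 rose with JQ1 (median -0.06). That is 72.2%, 61.1% and 27.8% of the list, against 37.7%, 29.3% and 17.6% of all genes. With JQ1 16.7% fell and 11.1% rose, near the 14.5% and 13.4% of the brighter genes. The JQ1 risers numbered 1 when any 1 of the 6 arrays compared was left out, except vehicle replicate 1. TADA1, a structural subunit of SAGA, fell by 0.96 ± 0.09 with the combination (adjusted p = 4.79e-06). TADA2A, an adaptor of ATAC, fell by 1.11 ± 0.09 with panobinostat (adjusted p = 5.72e-06) and by 0.76 ± 0.09 with the combination (adjusted p = 3.43e-05). SGF29, which shares ATAC with TADA2A, was at -1.21 and -0.26 in these comparisons. Among 16 NuA4/TIP60 subunits other than EPC2, 6 fell and 1 rose with the combination (median -0.11), 7 fell and 1 rose with panobinostat (median -0.10), and 3 fell and 0 rose with JQ1 (median -0.08, with 6 genes at an unadjusted p under 0.05). These calls were 43.8%, 50% and 18.8% of the list, against 37.7%, 29.3% and 17.6% of all genes. The JQ1 share is near that of all genes, so nothing is read from it. The JQ1 falls numbered 0 without vehicle replicate 3 or JQ1 replicate 2 or 3, and 1 without vehicle replicate 1. EPC1 had the largest fall of that list in the combination and panobinostat comparisons. The risers were RUVBL2, a helicase-like ATPase, with the combination (0.23 ± 0.08, adjusted p = 0.0324) and MBTD1, a reader subunit, with panobinostat (0.27 ± 0.07, adjusted p = 0.00891). The RUVBL2 call was lost without vehicle replicate 3 (0.176) or combination replicate 2 (0.2) or 3 (0.245). It was also lost with arrays centred on their medians (0.197), all clusters tested (0.234) or only the arrays compared (0.234). The MBTD1 call was lost when arrays were centred on their medians (0.216).

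Of 14 measured SIN3 complex genes other than SIN3A, 5 rose and 3 fell with the combination (median 0.19), and 4 rose and 2 fell with panobinostat (median 0.08). Calls made up 57.1% and 42.9% of the list, and 7.14% with JQ1, against 37.7%, 29.3% and 17.6% of all genes. The panobinostat risers numbered 2 without vehicle replicate 2, and the falls 1 without vehicle replicate 3 or panobinostat replicate 3. With each array centred on its median the directions were even, 3 higher and 3 lower with the combination and 2 higher and 2 lower with panobinostat. SIN3 was the only one of the 6 lists with a positive median in these comparisons, and whether its genes differ from those of the other lists was not tested. SAP30L, a SIN3-associated protein, rose by 0.75 ± 0.09 with the combination (adjusted p = 3.5e-05) and by 0.63 ± 0.09 with panobinostat (adjusted p = 0.000261). OGT, the O-GlcNAc transferase that binds SIN3A, fell by 0.54 ± 0.07 with the combination (adjusted p = 4.06e-05) and by 0.33 ± 0.07 with panobinostat (adjusted p = 0.00243). With JQ1 the list's median was 0.03 and OGT was the single gene to pass, falling by 0.21 ± 0.07 (adjusted p = 0.0439). That call was lost without any 1 of the 6 arrays compared (-0.241 to -0.161). It was also lost with arrays centred (-0.205), all clusters tested, only the arrays compared or the replicate number as a block (-0.211 each). In the comparison of the combination with panobinostat 0 of the 14 passed limma's test, against 14.7% of all genes. Of the 14, 3 had an unadjusted p under 0.05.

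The other deacetylase corepressors, NCoR, CoREST and NuRD, had 18 measured genes, of which 8 fell and 5 rose with the combination (median -0.11), 7 fell and 3 rose with panobinostat (median -0.08), and 3 fell and 2 rose with JQ1 (median -0.05). That is 72.2%, 55.6% and 27.8% of the list, against 37.7%, 29.3% and 17.6% of all genes. With JQ1 16.7% fell and 11.1% rose, near the 14.5% and 13.4% of the brighter genes. TBL1XR1, a subunit of the NCoR complex, had log2 signals of 8.23, 8.17 and 8.41 with the combination, 9.41, 9.53 and 9.44 with panobinostat, 9.15, 9.13 and 9.02 with JQ1, and 10.44, 10.33 and 10.41 with vehicle. The treated groups all lay below vehicle and none of the 4 groups overlapped. It fell by 2.13 ± 0.08 with the combination (adjusted p = 7.22e-09), the largest change of any of the 91 subunits in the comparisons with vehicle. It fell by 0.94 ± 0.08 with panobinostat (adjusted p = 6.79e-06) and fell by 1.30 ± 0.08 with JQ1 (adjusted p = 2.38e-06). HMG20B, a CoREST-associated protein, rose by 0.86 ± 0.06 with the combination (adjusted p = 4.51e-07) and by 0.61 ± 0.06 with panobinostat (adjusted p = 1.63e-05). RCOR1, the scaffold of CoREST, rose by 0.51 ± 0.06 with JQ1 (adjusted p = 0.000113).

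The MYST acetyltransferases and their scaffolds had 15 measured genes. With the combination 9 fell and 1 rose (median -0.52), with panobinostat 10 fell and 0 rose (median -0.51), and with JQ1 6 fell and 2 rose (median -0.10). Calls made up 66.7%, 66.7% and 53.3% of the list, against 37.7%, 29.3% and 17.6% of all genes. Without vehicle replicate 1 the risers numbered 2 with the combination, 1 with panobinostat (also 1 without panobinostat replicate 1) and 4 with JQ1. MSL1, the scaffold of a MOF complex, had log2 signals of 8.44, 8.54 and 8.50 with the combination, 9.21, 9.01 and 9.05 with panobinostat, 9.99, 10.01 and 9.95 with JQ1, and 10.38, 10.36 and 10.42 with vehicle. It stood in the same order as CREBBP, with no overlap between groups, and fell by 1.89 ± 0.07 with the combination (adjusted p = 6.9e-09). JADE1, a scaffold of the HBO1 complex, fell by 1.36 ± 0.09 with panobinostat (adjusted p = 1.08e-06), and JADE2 by 0.81 ± 0.14 with JQ1 (adjusted p = 0.00177). JADE2 is a dim cluster, averaging 7.14 with vehicle and 6.33 with JQ1, where array medians were 6.12 to 6.29. Whether its RNA was present with JQ1 was not tested. PHF20, a reader in another MOF complex, rose by 0.51 ± 0.08 with the combination (adjusted p = 0.000368) and by 0.38 ± 0.08 with JQ1 (adjusted p = 0.00805).

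**Figure D4:**
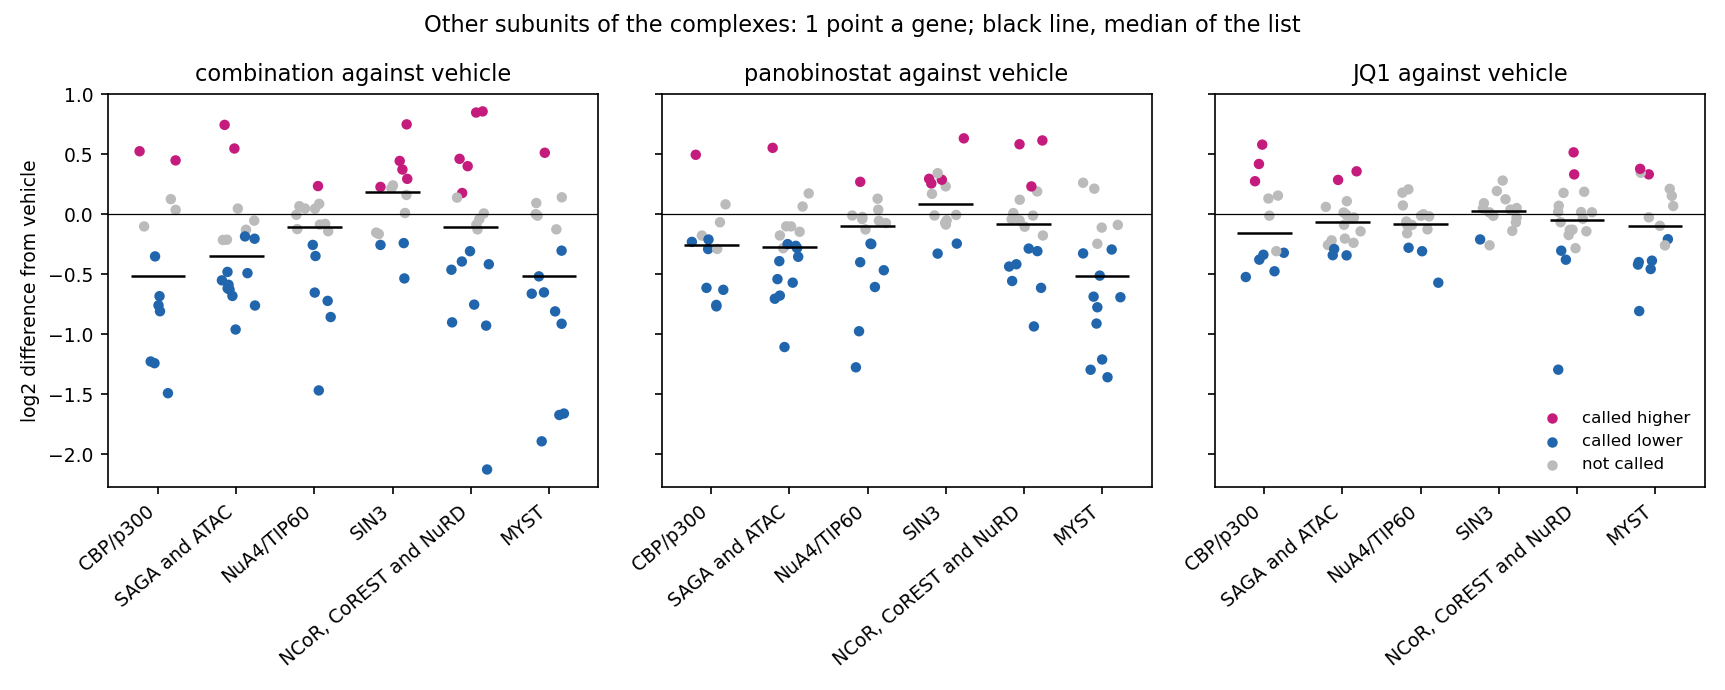
Log2 difference from vehicle (vertical axis) of the other measured subunits of 6 groups of complexes (horizontal axis), with 1 point per gene, pink where called higher, blue where called lower and grey where not called (limma, adjusted p under 0.05), and a black line at each median. In the combination panel blue points outnumber pink ones in every group except SIN3, where 5 are pink and 3 blue (3 and 3 with arrays centred on their medians).

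The 4 genes' signals were compared across the 12 arrays as a description, since arrays of a group share their treatment. Pearson's r was 0.91 between CREBBP and EPC2, 0.83 between SGF29 and EPC2 and 0.54 between CREBBP and SGF29. SIN3A ran against each of them, at -0.92 with CREBBP, -0.90 with EPC2 and -0.63 with SGF29. After each group's mean was removed, r was 0.68 between SIN3A and CREBBP and 0.68 between SIN3A and EPC2, and it was 0.15 between SIN3A and SGF29. It was 0.45 between SGF29 and EPC2, 0.26 between CREBBP and EPC2 and -0.07 between CREBBP and SGF29. The negative values thus rest on differences between treatments, and each positive value was lower once group means were removed.

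The genes most like each of the 4 over the 12 arrays were sought among 7438 others at or above the median signal. For CREBBP they were FBXO8, an F-box protein (r = 0.994), ZNF362, a zinc finger protein (0.990), and LRRC41 (0.990), and the most opposed was BNIP3L, a mitophagy receptor (-0.987). FBXO8 averaged 9.58 with the combination, 9.78 with panobinostat, 10.58 with JQ1 and 11.42 with vehicle, the order of CREBBP. For SGF29 they were NCOA5, a nuclear receptor coactivator (0.984), CRTAP, a collagen-modifying protein (0.982), and SRRM2, a splicing factor (0.981), with LRP1, an endocytic receptor, opposed (-0.973). NCOA5 averaged 10.37, 9.79, 10.77 and 10.46 in the same group order, lowest with panobinostat and highest with JQ1 as SGF29 was.

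For EPC2 they were SPIN1, a histone reader (0.990), QRICH1 (0.988) and PHACTR4, a phosphatase regulator (0.986), with CAST, the calpain inhibitor, opposed (-0.983). SPIN1 averaged 10.66 with the combination, 10.47 with panobinostat, 11.15 with JQ1 and 11.28 with vehicle. For SIN3A they were ZNF778, a zinc finger protein (0.995), NUP98, a nucleoporin (0.995), and RARS1, an arginyl-tRNA synthetase (0.992). The most opposed gene was TBX3, a transcription factor (-0.989), which averaged 9.40, 9.93, 11.11 and 11.31 in the same group order.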

How the data were processed

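Biotin-labelled RNA of SK-N-BE(2) cells was measured on 12 arrays, 3 in each of 4 groups named by the sample titles. The deposited table holds 1 value for each of 53617 clusters and array, from 1.39 to 14.1 and without zeros, so the authors' values are read as log2 signals, although the log base is not given in the sources used here. MAS5 and affy are named, per the submitters' processing notes, without version or role. How background and scale were treated, and on which build, is likewise not stated in the labels or notes used. The table was not normalized again.

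A platform table named 16098 clusters with 1 gene each, and 16098 matched RefSeq identifiers. Where a gene had several clusters, the one with the highest mean signal stood for it. Groups were compared in R 4.3.3 with limma 3.58.1 (all 12 arrays in 1 fit, two-sided, Benjamini-Hochberg over 14884 genes, threshold 0.05). An interaction term gave the departure from additivity.

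The members, lists and tests were chosen with earlier results of these data known. The subunits named are, per list and comparison with vehicle, the called gene with the largest rise and that with the largest fall, with relatives and enzyme partners of the 4 genes. Genes alike over the arrays are the 3 highest and 1 lowest by Pearson's r. TBL1XR1 and MSL1 were shown by array, CRTC1 was named, and TADA2A in added comparisons, after their values were seen.

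Alternatives were centring each array, quantile normalization, dropping the dimmest 40% of genes, the mean of a gene's clusters, all clusters, the compared arrays alone, a replicate block, and leaving out each array. Values for single lists and partner genes under these were added after seeing the data.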

Additional observations from a re-analysis of the deposited data

Results flagged for a closer look

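EPC2 stood out because its response to JQ1 differed with and without panobinostat: the interaction was 0.63 ± 0.12 on the log2 scale, with a difference of 0.37 for JQ1 added to panobinostat and of -0.26 for JQ1 against vehicle. It is a description, since EPC2 was chosen on these arrays. TADA2A, the ATAC adaptor, was the only 1 of the 91 tested subunits with such an interaction (0.69 ± 0.13, limma adjusted p = 0.0353). That is 1.1% of the subunits, near the 0.759% of all genes called, so the count says nothing particular about the subunits. Its log2 signals were 8.67, 8.82 and 8.94 with the combination, 8.44, 8.36 and 8.59 with panobinostat, 9.23, 9.18 and 9.27 with JQ1, and 9.69, 9.49 and 9.53 with vehicle. JQ1 went with a lower signal against vehicle (-0.34 ± 0.09, adjusted p = 0.0216) and a higher one against panobinostat (0.35 ± 0.09, adjusted p = 0.0246). The call against vehicle was lost without vehicle replicate 1 (-0.282) or JQ1 replicate 1 (-0.344) or 2 (-0.32). It was also lost with arrays centred on their medians (-0.336) or all clusters tested (-0.342). The call against panobinostat was lost without panobinostat replicate 1 (0.335) or 2 (0.293) or combination replicate 2 (0.34) or 3 (0.281). It was also lost with arrays centred (0.363), all clusters tested (0.346) or only the arrays compared (0.346). The TADA2A interaction call held in 5 of 18 alternative settings, over which the value ranged from 0.623 to 0.759. Groups of 3 arrays were not examined for outlying arrays.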

How the results depend on the processing

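For the combination against panobinostat 28 of 91 subunits were called. That count was 18 with each array centred on its median, 12 with all clusters tested, 12 with only the arrays compared, and 15 to 21 with 1 array left out (15 without combination replicate 2). The interaction's count of 1 was 0 with arrays centred, 0 with all clusters tested, 0 with the replicate number as a block, 2 without dim genes, and 0 to 1 with 1 array left out. The main interaction had 18 subunits at an unadjusted p under 0.05. No share of all genes was taken at an unadjusted threshold, here or for the single lists, so nothing is read from such counts. The counts of the other comparisons stayed within 1.5 times of the main ones (21 to 37 against 30 for JQ1, 42 to 54 against 51 for panobinostat and 52 to 61 against 59 for the combination, each with vehicle). The deviations of same-numbered arrays correlated at -0.69 to 0.24, with 6 pairs per number. Those of differently numbered arrays from different groups correlated at -0.41 to 0.49. With so few pairs and overlapping ranges, the check cannot decide whether the numbers pair the samples. The replicate block gave 24, 49 and 56 calls for JQ1, panobinostat and the combination against vehicle, and it ended the calls of EPC2's interaction and of SIN3A between combination and panobinostat. With 1 array left out EP300 with JQ1 ranged from -0.061 to 0.022 and SIN3B from -0.02 to 0.07, so neither has a settled direction. No difference of the 4 genes that had passed the threshold changed sign in any setting tried. The causes were not tested.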
